A study of Mus musculus with 12 samples.

Results

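The laminin chain genes are the genes whose products join, as 1 α, 1 β and 1 γ chain, into the laminin trimers of basement membranes. The 9 genes Lama1, Lama2, Lama3, Lama4, Lama5, Lamb1, Lamb2, Lamb3 and Lamc1 are taken by name alone, a choice made with earlier results of these data known, and all noncontrol probes carrying one of these names were taken. They had 27 of the 56605 probes on the array, and 18 of these passed a background filter that left 40460 probes for 27354 genes, so that each of the 9 genes kept at least 1 probe. Expression was measured in bulk tissue of orthotopic KP tumours of the pancreas, in female C57BL/6 mice given as 8 weeks old. The 6 FAKi tumours came from mice that had received an inhibitor of focal adhesion kinase by gavage at 50 mg/kg for 14 days, and the 6 vehicle tumours from mice that had received vehicle for 14 days. All 12 samples were KP tumours, and no tissue without tumour was measured here. The labels number the tumours without describing how they were sampled, so the p-values measure only the spread between these samples.

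Laminins are secreted glycoproteins that polymerise at the cell surface and link cells to collagen IV, nidogen and perlecan in the basement membrane. The α chain carries the domains bound by integrins and dystroglycan, and the β and γ chains complete the coiled-coil trimer. Focal adhesion kinase is a cytoplasmic tyrosine kinase that is activated when integrins engage the matrix, laminin included. In the pancreas, laminins surround ducts, acini, islets and vessels, and carcinoma cells and stromal cells can both make them. In bulk tissue, fewer cells of a type and less RNA per cell cannot be told apart.

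Values below are log2 intensities relative to the 75th percentile of each array, so 0 is the level of that percentile and 1 unit is a doubling. Levels are compared between tumours for 1 probe at a time and never between probes. The arrays of FAKi 6, vehicle 5 and vehicle 6 were the least like the others: their mean correlations with the other arrays across genes were 0.935, 0.931 and 0.918, against 0.944 to 0.958 for the other 9. The 12 arrays lay on 5 slides, of which 2 held both groups: slide 1 held FAKi 5, vehicle 3 and vehicle 5, and slide 4 held FAKi 1, vehicle 2 and vehicle 6. FAKi 6 was alone on its slide. A value with slide as a fixed term rests on the 6 arrays of slides 1 and 4 alone, as the mean of the differences within them. With slide as a random block, where the correlation within slides was estimated at 0.0332, all 9 laminin differences kept their sign, at −1.40 for Lama3 and −0.78 for Lama1. Of the ductal markers 11 of 11 passed the background filter, as did 9 of 9 fibroblast and 7 of 7 acinar markers and 9 of 10 endothelial markers, Erg being the exception. The filter kept 71.5% of all probes, and the basal, smooth muscle, skeletal muscle, adipocyte, Schwann cell, leukocyte and macrophage lists also passed in full. Of the islet markers 4 of 6 passed, with Sst and Iapp the exceptions. As most lists passed in full, these counts do not single out a tissue.

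The probes are 60 bases long and their sequences and positions are those of the array files, on the sense strand of the gene and the mouse build mm9. The 5 below are shown as the Lamb3 probe that follows Lama3 across tumours, probes of Lamc1 and Lama4 that disagreed with others of the same gene, and the pair of Lamb1 and Lama4 probes most alike in sequence. The Lamc1 probe (chr1:155077970-155078896, minus strand), the Lamb3 probe (chr1:195167088-195169619, plus strand) and the Lamb1 probe (chr12:32012684-32014030, plus strand) each cover more genomic bases than their length, so that they lie across a gap in the genome. The first Lama4 probe (chr10:38825794-38825853) and the second (chr10:38773604-38773663) are each 1 ungapped stretch of the plus strand. Exon and UTR annotation of mm9 was not used here. Capitals mark the longest run of bases shared between probes of different laminin chain genes, 11 bases.
Lamc1 A_66_P130669: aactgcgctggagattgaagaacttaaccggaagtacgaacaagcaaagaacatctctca
Lamb3 A_51_P223656: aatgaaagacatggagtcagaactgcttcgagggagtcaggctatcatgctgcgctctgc
Lamb1 A_51_P244287: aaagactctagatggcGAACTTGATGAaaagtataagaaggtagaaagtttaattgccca
Lama4 A_51_P212420: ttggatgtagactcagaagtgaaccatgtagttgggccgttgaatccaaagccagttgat
Lama4 A_55_P2733262: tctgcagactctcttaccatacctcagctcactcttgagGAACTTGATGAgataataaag
The shared run starts at base 17 of the Lamb1 probe and at base 40 of the second Lama4 probe, counted from the 5′ end. The chains are related proteins, but no other pair of probes from different members shared a run longer than 10 bases. Of the 16 probes designed on RefSeq transcripts 15 passed the background filter, against 2 of the 9 designed on Ensembl transcripts and 1 of the 2 designed on other cDNA.

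None of the 9 laminin chain genes differed between FAKi and vehicle tumours past the threshold. The comparison asks whether blocking the kinase that acts below the laminin-binding integrins went with a change in laminin mRNA. At an adjusted p below 0.05 in limma with Benjamini-Hochberg adjustment over all genes, 0 of 9 were called, beside 0.0% of all 27354 genes. At an unadjusted p below 0.05, 0 of 9 were called, beside 4.79% of all genes (1311 genes), and the smallest unadjusted p of a laminin gene was 0.0872, for Lama3. The point estimates lay below 0 for 5 genes and above 0 for 4, beside 39.5% of all genes below 0, and their median was −0.07 beside 0.08 for all genes. In 0 of the 9 genes did the groups fail to overlap, beside 0.239% of all genes with a value on every array. The adjusted p was 0.999 for each of the 9 genes, and the number of tumours limits the precision. In simulated data with the spread of these arrays, 8.6% of genes shifted by 1 log2 unit were recovered, 61.4% of those shifted by 2 and 87.4% of those shifted by 3, with a mean of 2.2 false calls. Many genes, shifted by 1 to 4 units, were present together there, which makes the adjusted threshold easier to reach. The shares therefore overstate the recovery of a gene that changes alone.

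**Figure D1:**
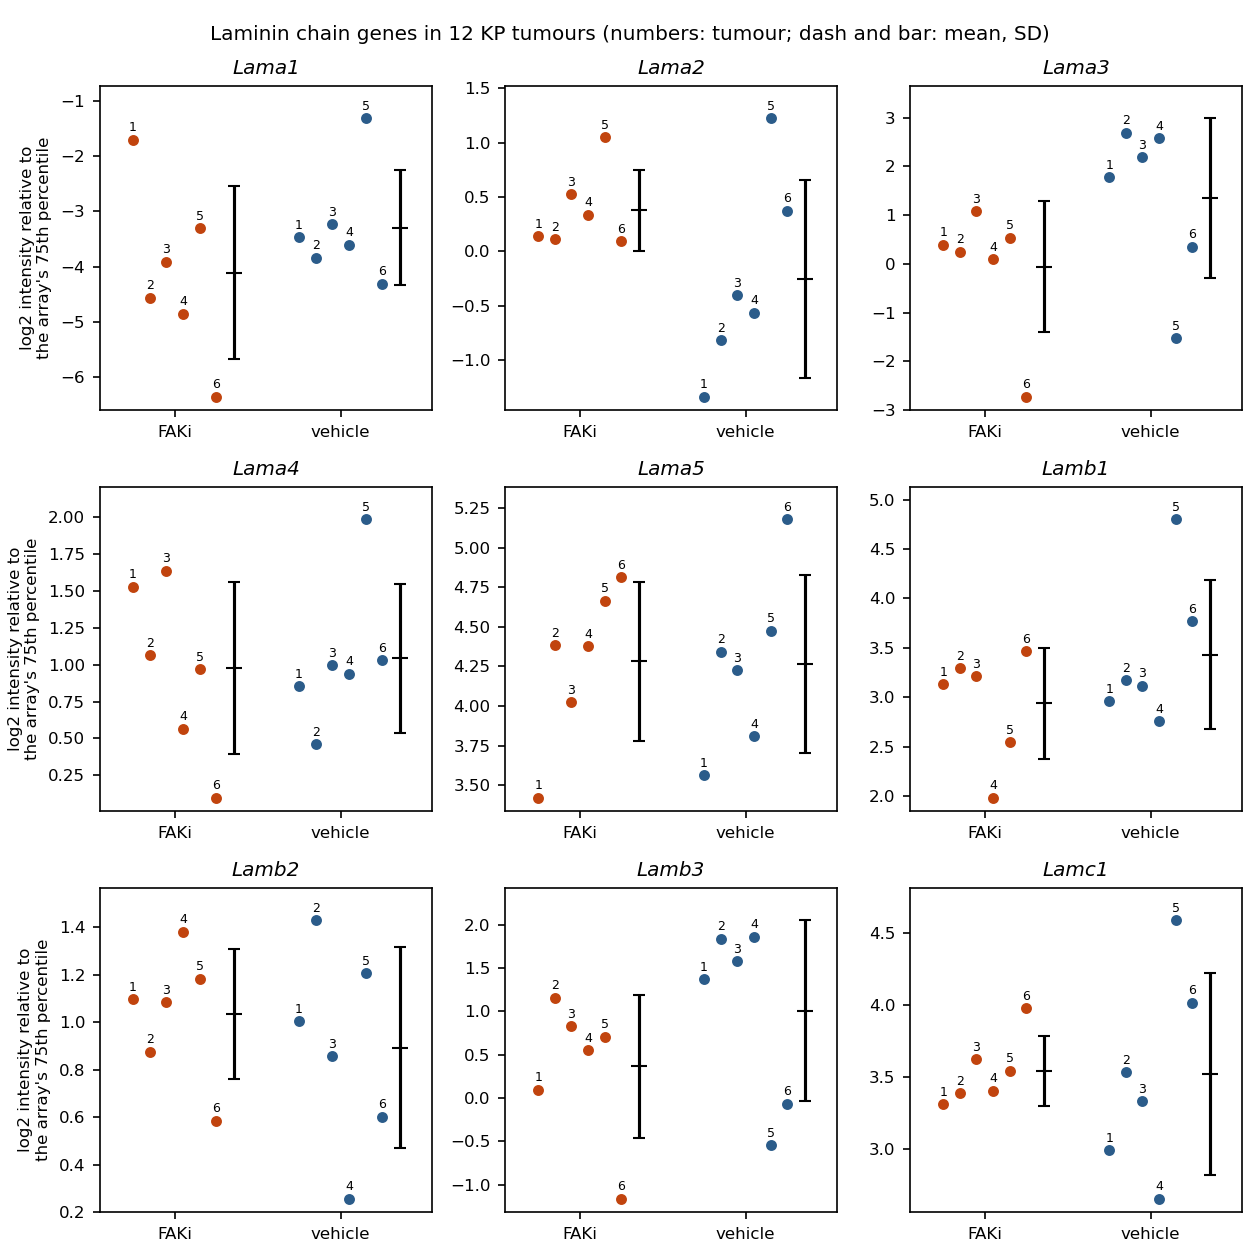
Log2 intensity relative to the array's 75th percentile (y axis, a separate scale for each gene) of the 9 laminin chain genes in FAKi tumours (left) and vehicle tumours (right); points are tumours, numbered as in the labels, and the dash and bar give the mean and SD of 6. The groups overlap in every panel. Lama3 of vehicle 1 to 4 lies above all FAKi tumours, while FAKi 6 and vehicle 5 are the lowest.

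Lama3 and Lamb3 encode the α3 and β3 chains, which are partners in the epithelial laminin that anchors hemidesmosomes. Both had their lowest values in FAKi 6 and vehicle 5. Lama3 in the FAKi tumours lay between −2.72 in FAKi 6 and 1.08 in FAKi 3 with a median of 0.32, against −1.52 in vehicle 5 to 2.70 in vehicle 2 with a median of 1.99 in the vehicle tumours. FAKi 1 to 5 lay between 0.10 and 1.08 and vehicle 1 to 4 between 1.79 and 2.70. Vehicle 6 (0.35) lay among the FAKi tumours and vehicle 5 below FAKi 1 to 5. The share of all genes in which vehicle 1 to 4 stand clear of the FAKi tumours was not counted, here or for Lamb3 and Lama2. Without vehicle 5, vehicle 6 and FAKi 6, 4805 genes had an unadjusted p below 0.05 in limma, against 1311 with all tumours, and 0 passed the threshold. The Lama3 means were −0.06 ± 1.35 in FAKi and 1.35 ± 1.64 in vehicle (SD, n = 6 each), a difference of −1.41 ± 0.76 (SE; 95% confidence interval −3.04 to 0.23), and all 6 FAKi tumours lay below the vehicle mean. The difference did not pass the threshold (limma, unadjusted p = 0.0872).

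The Lama3 difference varied with the arrays it was taken from. With slide as a fixed term it was −0.46, with slide as a random block −1.40, within slide 1 it was 0.21 (FAKi 5 against vehicle 3 and vehicle 5), and within slide 4 it was −1.13 (FAKi 1 against vehicle 2 and vehicle 6). Without vehicle 5, vehicle 6 and FAKi 6, an alternative added after the data were seen, it was −1.84 (limma, adjusted p = 0.0695), the smallest adjusted p of any laminin gene under any alternative, and over its 25 alternatives the adjusted p ran from 0.0695 to 1. A second Lama3 probe was well above background on 0 of the 6 FAKi arrays and on 4 of the 6 vehicle arrays, those of vehicle 1 to 4. Its mean was −8.46 in FAKi and −5.14 in vehicle. The vehicle mean includes vehicle 5 (−8.31) and vehicle 6 (−7.20), on which the probe was not above background either, so no fold is given. The probe failed the background filter, and in the limma fit without that filter its adjusted p was 0.785. The share of all probes that were above background as unevenly between the groups was not counted.

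Lamb3 lay between −1.16 in FAKi 6 and 1.16 in FAKi 2 with a median of 0.63 in the FAKi tumours, against −0.55 in vehicle 5 to 1.86 in vehicle 4 with a median of 1.47 in the vehicle tumours. Vehicle 1 to 4 again held the 4 highest values, and vehicle 5, vehicle 6 and FAKi 6 the 3 lowest. The difference was −0.64 ± 0.49 (95% confidence interval −1.70 to 0.42; limma, unadjusted p = 0.214), −0.30 with slide as a fixed term, 0.19 within slide 1 and −0.79 within slide 4. Without the 3 arrays that stood apart it was −0.99 (limma, adjusted p = 0.0984, with 0.0984 to 1 over the alternatives). The second Lamb3 probe, A_55_P1967196, lay between −2.17 and −0.78 in FAKi tumours, against −2.76 to 0.68 in vehicle tumours, with vehicle 1 to 4 (0.25 to 0.68) above every FAKi tumour. Its difference was −0.94 ± 0.59 (limma, unadjusted p = 0.135).

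Lama1 and Lama2 encode α1, a chain of embryonic and some adult epithelial basement membranes, and α2, the chain of muscle and peripheral nerve whose loss causes a muscular dystrophy. Lama1 lay between −6.35 in FAKi 6 and −1.70 in FAKi 1 with a median of −4.24 in the FAKi tumours, against −4.31 in vehicle 6 to −1.31 in vehicle 5 with a median of −3.53 in the vehicle tumours. FAKi 1 and vehicle 5 stood above the other 10 tumours, which lay at −3.23 or below. The difference was −0.82 ± 0.68 (95% confidence interval −2.28 to 0.64; limma, unadjusted p = 0.248), and it was 0.67 with slide as a fixed term, from −1.02 within slide 1 and 2.37 within slide 4, and −0.78 with slide as a random block. It was −0.13 without the 3 arrays that stood apart and −0.25 with normexp background correction. The probe was not well above background in 1 of 6 FAKi tumours. FAKi 6 was the dimmest of them, so the low end of the Lama1 range may lie at the floor. The Lama1 correlations below include that value. A second Lama1 probe was well above background in 1 FAKi tumour and in 0 vehicle tumours.

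Lama2 was the chain whose FAKi tumours all lay above the vehicle mean. It lay between 0.09 in FAKi 6 and 1.05 in FAKi 5 with a median of 0.24 in the FAKi tumours, against −1.33 in vehicle 1 to 1.22 in vehicle 5 with a median of −0.48 in the vehicle tumours. Vehicle 1 to 4 (−1.33 to −0.40) lay below every FAKi tumour, and vehicle 5 was the highest of all 12. The difference was 0.63 ± 0.38 (95% confidence interval −0.19 to 1.45; limma, unadjusted p = 0.12), 0.50 with slide as a fixed term, 0.64 within slide 1 and 0.36 within slide 4. Without the 3 arrays that stood apart it was 1.21 (limma, adjusted p = 0.092, with 0.092 to 1 over the alternatives). The second Lama2 probe that passed the filter had a difference of 0.47 ± 0.37, and the other 3 were well above background in at most 1 tumour each.

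Lama4 encodes α4, a chain of vascular and mesenchymal basement membranes. It lay between 0.10 in FAKi 6 and 1.64 in FAKi 3 with a median of 1.01 in the FAKi tumours, against 0.46 in vehicle 2 to 1.98 in vehicle 5 with a median of 0.97 in the vehicle tumours. The groups overlapped over nearly their whole ranges, and the difference was −0.07 ± 0.31 (95% confidence interval −0.74 to 0.61; limma, unadjusted p = 0.833). It was 0.13 with slide as a fixed term, −0.52 within slide 1, 0.78 within slide 4 and 0.34 without the 3 arrays that stood apart. Lama5 encodes α5, the most widespread α chain of adult epithelial and vascular basement membranes. It lay between 3.42 in FAKi 1 and 4.81 in FAKi 6 with a median of 4.38 in the FAKi tumours, against 3.56 in vehicle 1 to 5.18 in vehicle 6 with a median of 4.28 in the vehicle tumours. The difference of 0.02 ± 0.31 (95% confidence interval −0.65 to 0.68) was −0.51 with slide as a fixed term, 0.32 within slide 1, −1.34 within slide 4 and 0.19 without the 3 arrays that stood apart.

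Lamb1 and Lamb2 encode β1, the widespread β chain, and β2, the β chain of the neuromuscular junction and the kidney glomerulus. Lamb1 lay between 1.99 in FAKi 4 and 3.47 in FAKi 6 with a median of 3.17 in the FAKi tumours, against 2.76 in vehicle 4 to 4.80 in vehicle 5 with a median of 3.14 in the vehicle tumours. The medians were nearly equal, and the difference of means, −0.49 ± 0.37 (95% confidence interval −1.28 to 0.30; limma, unadjusted p = 0.203), was −0.22 without vehicle 5, the highest tumour, and −0.17 without the 3 arrays that stood apart. It was −0.87 with slide as a fixed term, −1.41 within slide 1 and −0.34 within slide 4. Lamb2 had the smallest spread of the 9 genes over the 12 tumours, an SD of 0.35 that only 12.7% of genes fell below, and a difference of 0.14 ± 0.24 (95% confidence interval −0.37 to 0.65). It lay between 0.58 and 1.38 in FAKi tumours and between 0.26 and 1.43 in vehicle tumours. Its difference was 0.12 with slide as a fixed term, 0.15 within slide 1, 0.08 within slide 4 and 0.24 without the 3 arrays that stood apart.

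Lamc1 encodes γ1, the γ chain of most laminin trimers. It lay between 3.31 in FAKi 1 and 3.98 in FAKi 6 with a median of 3.47 in the FAKi tumours, against 2.65 in vehicle 4 to 4.59 in vehicle 5 with a median of 3.43 in the vehicle tumours. All FAKi tumours lay within the range of the vehicle tumours, with SDs of 0.24 and 0.70 (n = 6 each). The difference was 0.02 ± 0.30 (95% confidence interval −0.63 to 0.68), −0.44 with slide as a fixed term, −0.42 within slide 1, −0.46 within slide 4 and 0.33 without the 3 arrays that stood apart. The SD over all 12 tumours ranged among the 9 genes from 0.35 for Lamb2 to 1.61 for Lama3, and 96.8% of all genes had a smaller SD than Lama3. Lama1 (SD 1.34) and Lamb3 (SD 0.96) followed, with 93.7% and 84.5% of genes below them.

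**Figure D2:**
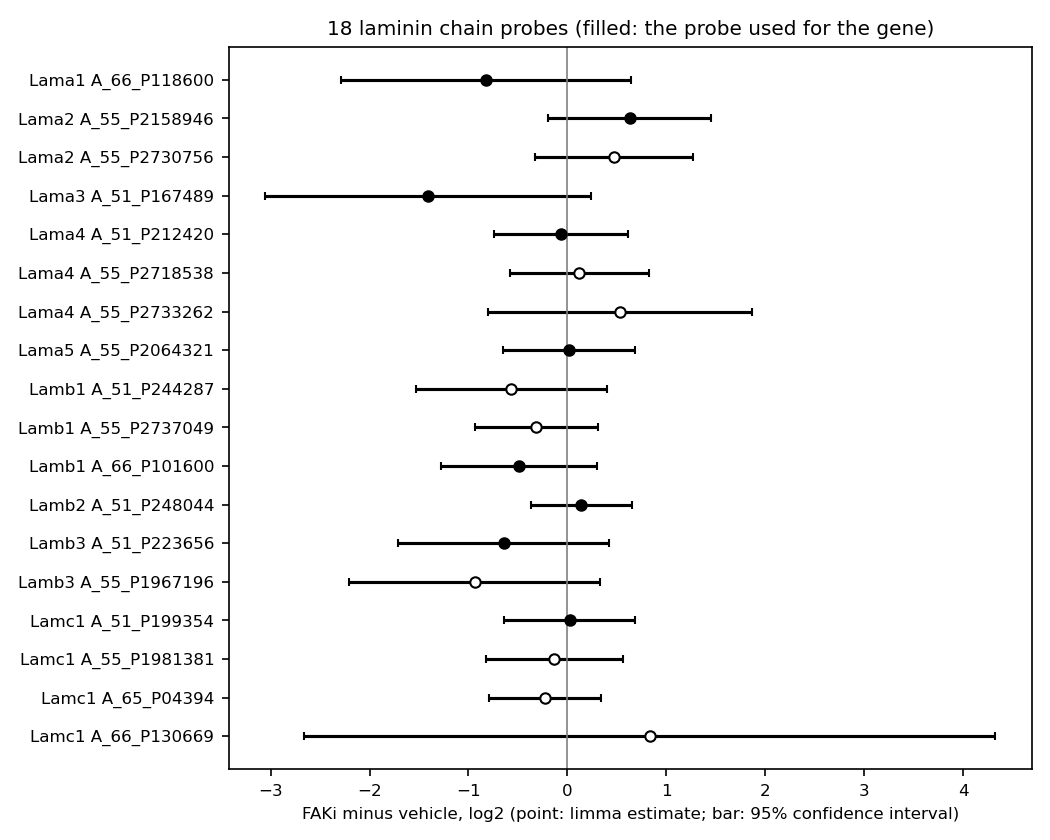
Difference FAKi minus vehicle (x axis, log2) of the 18 laminin chain probes that passed the background filter; points are limma estimates and bars 95% confidence intervals, with the probe used for the gene filled. Every interval crosses 0, with 8 estimates above 0 and 10 below, and the Lamc1 probe A_66_P130669 has the widest interval.

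Of the 18 probes that passed the filter, 0 were called at an adjusted p below 0.05 (limma, 0.0% of 40460 probes) and 0 at an unadjusted p below 0.05 (4.84% of all probes). Probes of 1 gene did not always move together. The pair of Lamc1 probes A_51_P199354 and A_55_P1981381, which share 55 bases, ranged from 3.31 to 3.98 and from 2.98 to 3.86 in FAKi tumours, and from 2.65 to 4.59 and from 2.62 to 4.56 in vehicle tumours. The Lamc1 probe across the genomic gap, A_66_P130669, behaved otherwise. In FAKi 1 to 5 it lay between −2.62 and −0.49 and in FAKi 6 at −7.90, against −2.13 to 0.04 in vehicle 1 to 4, −8.27 in vehicle 5 and −7.13 in vehicle 6. It rose clear of background in 5 of the FAKi tumours and in 4 of the vehicle tumours, and the 3 tumours in which it was not were those whose arrays stood apart. In these same 3 tumours the other pair of Lamc1 probes had their 3 highest values. Its difference was 0.83 ± 1.62 (95% confidence interval −2.66 to 4.33), the widest interval of the 18 probes.

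**Figure D3:**
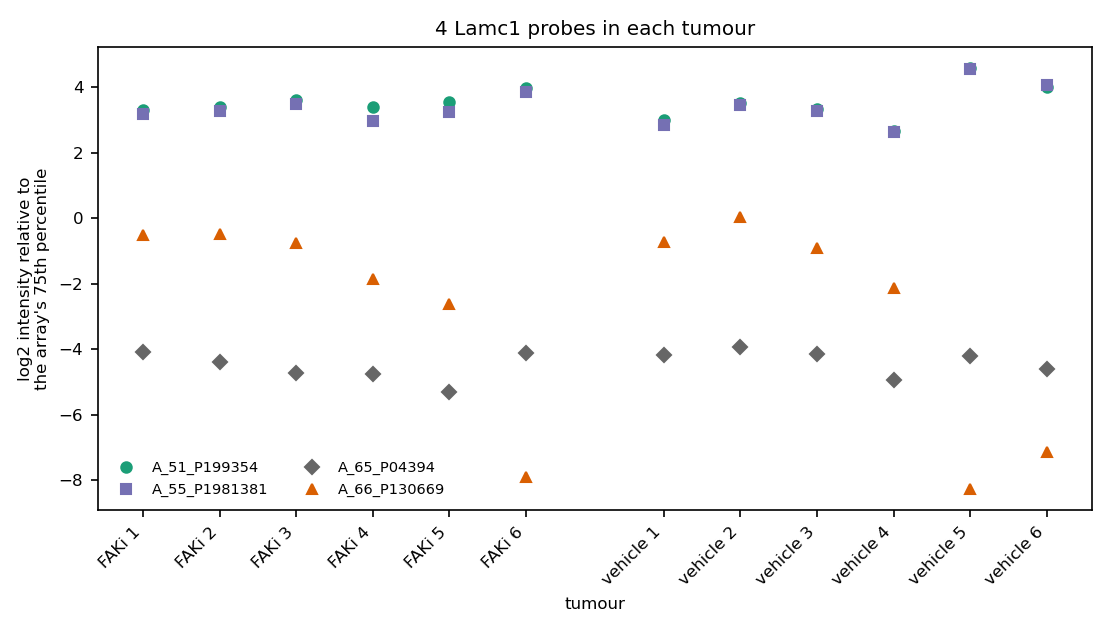
Log2 intensity relative to the array's 75th percentile (y axis) of the 4 Lamc1 probes in each FAKi tumour (left) and vehicle tumour (right), 1 point per probe and tumour; heights of different probes are not comparable. The probe A_66_P130669 drops to −7.90 in FAKi 6, −8.27 in vehicle 5 and −7.13 in vehicle 6, where the probes A_51_P199354 and A_55_P1981381 are at their highest.

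The Lama4 probes also differed in their order of tumours. A_55_P2733262 was lowest in FAKi 6 (−5.57), vehicle 6 (−4.64) and vehicle 5 (−4.33), and had a difference of 0.54 ± 0.62. A_55_P2718538 was highest in vehicle 6 (−1.31), FAKi 6 (−1.87) and vehicle 5 (−1.94), and had a difference of 0.12 ± 0.33. The probe that stands for the gene, A_51_P212420, was highest in vehicle 5 and lowest in FAKi 6. The arrays that stood apart therefore held the low end of A_55_P2733262, the high end of A_55_P2718538 and both ends of A_51_P212420. At the other ends were FAKi 1 (−1.46) for A_55_P2733262 and vehicle 1 (−3.18) for A_55_P2718538. For Lamb1 all 3 probes had estimates below 0, −0.57 ± 0.45 for A_51_P244287, −0.31 ± 0.29 for A_55_P2737049 and −0.49 ± 0.37 for A_66_P101600.

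The chains differed in which others they followed from tumour to tumour. Over the 12 tumours, 2 of the 36 pairs of laminin genes passed an adjusted p of 0.05, both positive, and 9 had an unadjusted p below 0.05 (2-sided permutation tests of 100000 resamples, Benjamini-Hochberg over the 36 pairs). The first was Lama3 with Lamb3, the α3 and β3 chains of 1 trimer, with Pearson r = 0.94 (permutation p = 1e-05, the smallest that the resamples can give; adjusted p = 0.00036) and Spearman rho = 0.89 (permutation p = 0.00016; adjusted p = 0.00576). Without vehicle 2 and FAKi 6, the tumours farthest from the Lama3 median, r was 0.89. It was 0.89 within the FAKi tumours, 0.97 within the vehicle tumours, 0.94 with group means removed and 0.95 with slide means removed. Without the 3 arrays that stood apart r was 0.88, and the adjusted p of 0.125 (exact permutation test over the 9 tumours left) no longer passed, while it passed under the other 19 alternatives with an r of at least 0.83. Among all 27241 genes with a value on every array, Lamb3 had the highest r with Lama3 and Lama3 the second highest with Lamb3. An r this high was found in 0.00857% of the 245160 pairs of a laminin gene with any gene.

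**Figure D4:**
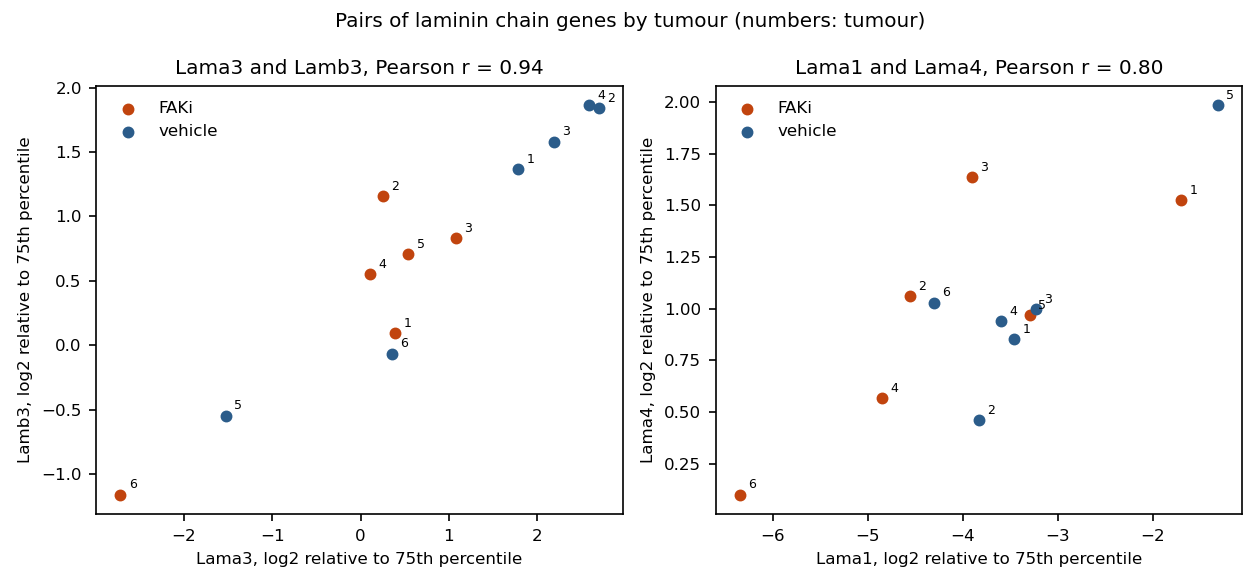
Lamb3 against Lama3 (left panel) and Lama4 against Lama1 (right panel), log2 intensity relative to the array's 75th percentile on both axes; points are FAKi and vehicle tumours, numbered as in the labels. In the left panel the 12 tumours lie along 1 line (r = 0.94) from FAKi 6 and vehicle 5 up to vehicle 1 to 4. In the right panel (r = 0.80) FAKi 6 is lowest and vehicle 5 highest in both genes, with FAKi 1 next to vehicle 5 in Lama1.

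The second pair was Lama1 with Lama4, with r = 0.80 (permutation p = 0.00261, adjusted p = 0.047) but rho = 0.50 (permutation p = 0.104, adjusted p = 0.287). It rested on the tumours at the ends: without vehicle 5 and FAKi 6, r was 0.47. Within groups r was 0.81 in FAKi and 0.86 in vehicle, and with slide means removed 0.82. The pair lost the threshold when any of 10 of the 12 tumours was left out, and also with the mean of a gene's probes. The 3 Lama4 probes that passed the filter correlated with one another at only 0.02, 0.41 and −0.72, and the pair was taken with A_51_P212420. An absolute r of at least 0.80 was found in 2.22% of the pairs of a laminin gene with any gene.

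The next pairs in order of p did not pass. Lamc1 had r = −0.76 with Lamb3 (permutation p = 0.00426, adjusted p = 0.0511; rho = −0.70, permutation p = 0.0147), −0.61 without vehicle 5 and FAKi 6 and −0.42 without the 3 arrays that stood apart. Lamc1 had r = 0.74 with Lamb1 (permutation p = 0.00981, adjusted p = 0.0709; rho = 0.66, permutation p = 0.0225), with 0.42 within FAKi tumours, 0.96 within vehicle tumours and 0.10 without the 3 arrays. Lamc1 had r = −0.72 with Lama3 (permutation p = 0.00985, adjusted p = 0.0709; rho = −0.57, permutation p = 0.0594). Without the 3 arrays that stood apart, the γ1 gene thus had weaker correlations with Lamb3, Lamb1 and Lama3, −0.43 in the case of Lama3. All Lamc1 correlations here are those of the probe A_51_P199354. Over the tumours that probe had r = −0.76 with the Lamc1 probe A_66_P130669 and 0.21 with A_65_P04394, so the correlations may not hold for those probes. Lamc1 had r = 0.68 with Lama2 (permutation p = 0.015, adjusted p = 0.0899; rho = 0.69, permutation p = 0.0174) and r = 0.66 with Lama5 (permutation p = 0.0195, adjusted p = 0.1; rho = 0.79, permutation p = 0.00371). Lama2 had r = −0.62 with Lama3 and with Lamb3 (adjusted p = 0.128 for each). After the group means were removed 8 of the 36 pairs passed, and after the slide means were removed 7, though resampling values with means removed makes these p-values too small.

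**Figure D5:**
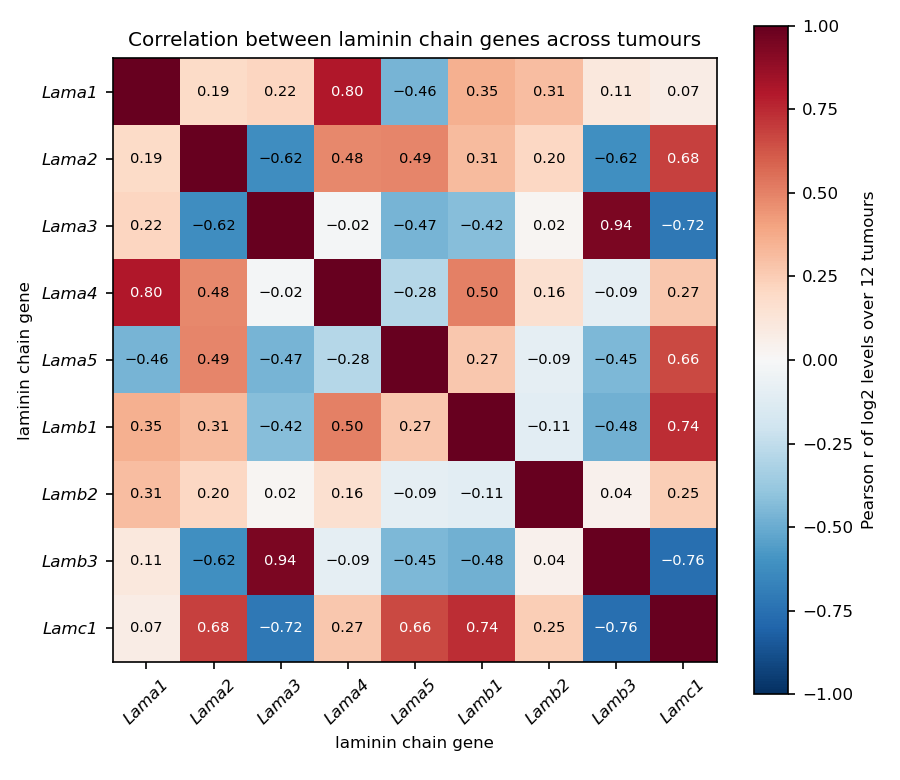
Pearson correlation over the 12 tumours between the log2 levels of each pair of the 9 laminin chain genes (both axes), in colour from −1 to 1 with the value printed. Lama3 with Lamb3 (0.94) and Lama1 with Lama4 (0.80) are the 2 pairs past the threshold, and Lama3 and Lamb3 are negative with Lamc1 (−0.72 and −0.76).

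Each laminin gene was set against scores of 12 cell type marker lists, each score being the average over a list of how far each gene lay, in log2 units, from its own mean of the 12 tumours. None of the 108 pairs passed the adjusted threshold, by Pearson or by Spearman, and 19 had an unadjusted p below 0.05. This count depended on the normalisation: with quantile normalisation 5 pairs passed, Lama3 (r = 0.89) and Lamb3 (r = 0.87) with the ductal score, Lama4 with the fibroblast (r = 0.88) and macrophage scores (r = 0.80) and Lama1 with the endothelial score (r = 0.80), at adjusted permutation p-values of 0.00864 to 0.0469. The same 5 pairs passed in the authors' deposited table. The share of all genes that correlate as strongly with these scores was not counted, so these pairs are not shown to be particular to laminins. With group means removed 3 passed, and with slide means removed 4, Lama3 with the ductal score being among them in both. Lama3 and Lamb3 had their highest r with the ductal epithelium score, 0.80 for Lama3 (permutation p = 0.00185, adjusted p = 0.126; rho = 0.73, permutation p = 0.00849) and 0.75 for Lamb3 (permutation p = 0.00467, adjusted p = 0.126; rho = 0.66, permutation p = 0.0216). Without the 2 farthest tumours these were 0.74 and 0.50, and with slide means removed 0.89 and 0.85. The ductal score ranged from −0.56 in FAKi 6 to 0.22 in FAKi 4 among the FAKi tumours, against −1.004 in vehicle 5 to 0.83 in vehicle 2 among the vehicle tumours. The tumours lowest in Lama3 were thus lowest in ductal markers, and the part of tissue composition in the Lama3 and Lamb3 levels was not tested.

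Lama2 had its highest correlation with the fibroblast score, r = 0.78 (permutation p = 0.00293, adjusted p = 0.126; rho = 0.80, permutation p = 0.00256), which was 0.51 without vehicle 1 and vehicle 5, 0.44 within FAKi and 0.97 within vehicle tumours. Its correlation with the macrophage score was r = 0.73 (permutation p = 0.00796, adjusted p = 0.143; rho = 0.67, permutation p = 0.0208). Lama4 also had its highest correlation with the fibroblast score, r = 0.73 (permutation p = 0.00709, adjusted p = 0.143; rho = 0.83, permutation p = 0.00127), which was 0.63 without vehicle 5 and FAKi 6. The Lama2 and Lama4 values are those of the probes A_55_P2158946 and A_51_P212420, and may not hold for other probes of these genes. Lama1 had its highest correlation with the endothelial score, r = 0.78 (permutation p = 0.00386, adjusted p = 0.126; rho = 0.71, permutation p = 0.0119), which was 0.44 without vehicle 5 and FAKi 6 and 0.47 with slide means removed. With the acinar score Lama1 had r = −0.62 (permutation p = 0.0283, adjusted p = 0.208) and rho = −0.75 (permutation p = 0.00676, adjusted p = 0.212). With the Schwann cell score Lama1 had r = −0.67 and rho = −0.73, and with the leukocyte score r = 0.68. The acinar and Schwann cell rho were larger in size than the endothelial rho. Other pairs with an unadjusted permutation p below 0.05 included Lama4 with the leukocyte (r = 0.71), Lamb2 with the basal (r = −0.65), Lamb1 with the ductal (r = −0.63) and Lama5 with the acinar score (r = 0.61). The fibroblast score ranged from −0.45 to 0.47 in FAKi tumours and from −0.92 to 0.83 in vehicle tumours. The endothelial score ranged from −1.004 to 0.34 in FAKi tumours and from −0.77 to 1.02 in vehicle tumours, and all 9 measured endothelial markers had estimates below 0, 2 of them at an unadjusted p below 0.05 and 0 past the threshold, beside 39.5% of all genes below 0 and 2.08% lower at an unadjusted p below 0.05. All 6 adipocyte markers also had estimates below 0 and all 7 acinar markers above 0, with score differences of −1.13 and 0.44, and 0 of either passed the threshold. At an unadjusted p below 0.05 in limma there were 0 adipocyte markers and 1 acinar marker, beside 2.72% of all genes higher and 2.08% lower. The remaining lists held estimates of both signs. Their part in the laminin estimates was not tested.

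The genes that work with laminins did not pass the threshold either: 0 of 9 laminin receptors, 0 of the 9 measured of 12 basement membrane partners, 0 of 7 hemidesmosome genes, 0 of 5 proteases that cleave laminins and 0 of the 2 measured of 4 netrins. The same held at an unadjusted p below 0.05 in either direction, beside 2.72% of all genes higher and 2.08% lower in FAKi. The median differences were −0.03 for receptors, 0.06 for basement membrane partners, −0.19 for hemidesmosome genes, 0.25 for the proteases and 0.55 for the netrins, beside 0.08 for all genes. Itga6, the α subunit of the laminin-binding integrins of epithelia, had a median of 2.89 in FAKi against 3.40 in vehicle, a difference of −0.37 ± 0.22. Bcam, a Lutheran blood group receptor for the α5 chain, had a difference of 1.06 ± 0.69. Col15a1 and Nid2, a collagen and a nidogen of the basement membrane zone, had differences of 1.13 ± 0.89 and −0.37 ± 0.31. Col7a1, the anchoring fibril collagen, had −1.03 ± 0.71. The membrane protease Mmp14 had 0.53 ± 0.55 and the urokinase gene Plau 0.40 ± 0.42. The netrins Ntn1 and Ntng2, secreted or membrane-bound guidance proteins with laminin-like domains, had 0.84 ± 0.79 and 0.25 ± 0.36.

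Across tumours some chains correlated with genes of these lists. Of 270 pairs of a laminin gene with 1 of the 30 related genes that had a value on every array, a comparison added after the data were seen, 15 passed an adjusted permutation p of 0.05, 12 of them positive. They belonged to Lamb1 (5), Lamc1 (5), Lama2 (3) and Lama4 (2). An absolute r at least that of the weakest of them was found in 6.3% of these 270 pairs, beside 3.43% of the pairs of a laminin gene with any gene, and no test of that difference was made. Lamb1 had r = 0.90 with Col18a1, the collagen that gives rise to endostatin (permutation p = 1e-05, adjusted p = 0.0027; rho = 0.94, permutation p = 1e-05), and 0.72 without the 3 arrays that stood apart. Lamb1 had r = 0.91 with Itgb1, the β1 integrin subunit shared by most laminin receptors (permutation p = 6e-05, adjusted p = 0.0072; rho = 0.91, permutation p = 0.00016), and 0.65 without the 3 arrays. Lamb1 was negative with Bcam, r = −0.88 (permutation p = 8e-05, adjusted p = 0.0072; rho = −0.77, permutation p = 0.00515), and −0.65 without the 3 arrays. Within the FAKi and the vehicle tumours these 3 values were 0.95 and 0.94 for Col18a1, 0.87 and 0.95 for Itgb1 and −0.89 and −0.84 for Bcam, and with slide means removed 0.91, 0.92 and −0.87. All Lamb1 correlations are those of the probe A_66_P101600. Over the tumours that probe had r = 0.54 with A_51_P244287 and 0.69 with A_55_P2737049, so they may not hold for those probes.

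Lamc1 had r = 0.89 with Plec, the hemidesmosome linker plectin (permutation p = 0.00013, adjusted p = 0.00864; rho = 0.89, permutation p = 0.00025), with 0.53 within FAKi tumours, 0.95 within vehicle tumours and 0.87 without the 3 arrays that stood apart. It also passed with Col18a1 (r = 0.86, permutation p = 0.00016, adjusted p = 0.00864; rho = 0.74, permutation p = 0.00779) and Itgb1 (r = 0.87, permutation p = 0.00026, adjusted p = 0.00877; rho = 0.73, permutation p = 0.00954), and these 2 fell to 0.50 and 0.49 without the 3 arrays. These Lamc1 values are again those of the probe A_51_P199354, with which other Lamc1 probes disagreed. Lama4 had r = 0.86 with Nid1, the nidogen that binds the γ1 chain (permutation p = 0.00026, adjusted p = 0.00877; rho = 0.83, permutation p = 0.00139), 0.85 without vehicle 5 and FAKi 6 and 0.93 with slide means removed. Lama2 had r = 0.86 with Hspg2, which encodes perlecan (permutation p = 0.00025, adjusted p = 0.00877; rho = 0.92, permutation p = 7e-05), 0.87 without vehicle 1 and vehicle 5 and 0.74 with slide means removed. The Lama4 with Nid1 and Lama2 with Hspg2 pairs were thus about as strong without the 3 arrays, at 0.88 and 0.86. They too rest on 1 probe per gene. The Lama4 probe A_51_P212420 had r = 0.02 and 0.41 with the other Lama4 probes that passed the filter. The Lama2 probe A_55_P2158946 had r = 0.48 with A_55_P2730756. These pairs may therefore not hold for the other probes.

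The genes whose levels over the 12 tumours were most like those of each chain, among 27241 genes and leaving out other laminin chains, predicted genes and unnamed transcripts, were picked for their r and carry no test. For Lama3 they were Pin4 (r = 0.94), Smox, which encodes spermine oxidase (r = 0.94), and Cblc (r = 0.93), and for Lamb3 they were Smox (r = 0.96), Pin4 (r = 0.94) and Mcpt1 (r = 0.92). The α3 and β3 genes therefore had 2 of their 3 nearest genes in common. For Lama4 they were Pakap (r = 0.96), Emilin2, an extracellular matrix glycoprotein (r = 0.94), and Loxl3, an enzyme of the lysyl oxidase family (r = 0.94). For Lama1 they were Cd72 (r = 0.94), Zdhhc14 (r = 0.92) and Scarf1 (r = 0.91), and for Lama2 Czib (r = 0.92), Psmc3 (r = 0.92) and Dapk2 (r = 0.91). For Lama5 they were Akap9 (r = 0.97), Kcnn4 (r = 0.95) and Cpsf4 (r = 0.95). For Lamb1 they were Cttnbp2nl (r = 0.96), Chsy1 (r = 0.96) and Plekha1 (r = 0.96), for Lamb2 Trim65 (r = 0.88), Cdk18 (r = 0.84) and Abhd16a (r = 0.84), and for Lamc1 Efnb2 (r = 0.96), Faf1 (r = 0.96) and Tpp2 (r = 0.95). These values share the scaling of each array, and Lamb2, with the smallest spread, had the lowest.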

How the data were processed

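The authors deposited 1 scanner file per tumour with red-channel intensity values, made with Agilent Feature Extraction 11.5.1.1, which subtracted background and detrended each array, per the file headers, and a table of log2 values whose normalisation the sources used here do not state. Limma is named in the submitters' processing notes. The file of FAKi 6 carried no probe positions, so its probes were matched by name to the other arrays. Outlier spots (71 to 156 per array) were left out, and 0 were saturated. The log2 of the processed intensity minus the array's 75th percentile was averaged per probe, and probes well above background on at least 6 of 12 arrays were kept. A gene was its brightest kept probe on average. Groups were compared by limma 3.58.1 in R 4.3.3 with no covariate, checked on simulated data. The members and lists were chosen with earlier results of these data known. Every member was named, and of each related list the 2 genes of smallest p. Alternatives changed the normalisation, background correction, filter, probe rule, slide or replicate block, array weights and the tumours used.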

Additional observations from a re-analysis of the deposited data

Results flagged for a closer look

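Of 36 groups of 6 values, 4 held a tumour whose gap to its neighbour was too large for the range of the group by Dixon's test, where chance gives about 1 in 20. Lama1 was highest in vehicle 5 at −1.31, against −4.31 to −3.23 in the other 5 vehicle tumours. Lama3 was lowest in FAKi 6 at −2.72, against 0.10 to 1.08 in the other 5 FAKi tumours. Lama4 was highest in vehicle 5 at 1.98, against 0.46 to 1.03 in the other 5 vehicle tumours. The Lamc1 probe A_66_P130669 was lowest in FAKi 6 at −7.90, against −2.62 to −0.49 in the other 5 FAKi tumours. All 4 fell on tumours whose arrays were among the 3 least like the others.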

How the results depend on the processing

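The differences of Lama2, Lama3, Lamb1, Lamb2 and Lamb3 kept their direction under all 25 alternatives, and 0 laminin genes passed the threshold under any. Lama1 reversed to 0.67 with slide as a fixed block. Lama4 reversed to 0.20 with the mean of a gene's probes, 0.13 with the slide block, 0.24 with array weights and 0.34 without vehicle 5, vehicle 6 and FAKi 6. Lama5 reversed to −0.039 with quantile normalisation, −0.019 with median centring, −0.041 in the authors' deposited table and −0.51 with the slide block. Lamc1 reversed to −0.042 with quantile normalisation, −0.021 with normexp, −0.013 with median centring, −0.052 in the authors' deposited table and −0.44 with the slide block. The cause of these reversals was not tested.

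With 1 tumour left out, differences ranged from −1.30 to −0.37 for Lama1, 0.41 to 0.93 for Lama2, −1.98 to −0.87 for Lama3, −0.20 to 0.12 for Lama4, −0.12 to 0.20 for Lama5, −0.62 to −0.22 for Lamb1, 0.015 to 0.25 for Lamb2, −0.95 to −0.34 for Lamb3 and −0.15 to 0.24 for Lamc1. Genes past the threshold over the whole array numbered 0 to 3, with 3 only without FAKi 1, and probes 0 to 4; with array weights there were 4 genes and 6 probes. At an unadjusted p below 0.05 there were 762 to 3774 genes (without FAKi 4 and without vehicle 6), 496 with the slide block, 5164 with array weights and 4805 without the 3 arrays, against 1311.

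Pairs of laminin genes past the threshold numbered 1 to 4 with 1 tumour left out (4 without vehicle 2), 1 by Spearman rho, 8 with group means removed, 7 with slide means removed and 0 without the 3 arrays, against 2. Marker pairs past it numbered 5 with quantile normalisation and in the authors' deposited table, 3 with group means removed and 4 with slide means removed, against 0. With the replicate block 0 genes passed, and the Lama3 difference was −1.41 (adjusted p = 0.815); same-numbered tumours correlated from −0.12 to 0.49 and only 1 of 6 FAKi tumours was closest to its own number, so the numbers were not used as pairs.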
